A study of Mus musculus with 2 samples.

Results

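The Mir23a cluster on chromosome 8 and the Mir23b cluster on chromosome 13 of the mouse were described in hippocampus, the brain region of memory formation. The 6 members, Mir23a, Mir27a and Mir24-2 in the first cluster and Mir23b, Mir27b and Mir24-1 in the second, were chosen by name and position among the 2202 microRNA genes of the GENCODE M21 annotation, and the rule that defines them uses no measured value. All 6 were found in both libraries with more than 100 reads each. The study sequenced RNA below 30 nt from 2 libraries of one group, control hippocampus of wild-type female mice of the strain written B6NCrl, with no treatment and no allele named. The age field of the labels holds no value. The labels number the libraries as biological replicates 1 and 2, give them separate biosample records and one donor record, and do not say whether they came from separate animals. The spread between them may therefore be technical. A change in the number of cells of a type and a change in the amount of a microRNA per cell cannot be told apart in bulk tissue. The adapter trimming document differs between the libraries, so trimming and sample cannot be told apart either.

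Each of these genes encodes a hairpin precursor. Drosha cuts the hairpins out of a common primary transcript, Dicer releases a duplex, and one strand of it guides Argonaute to messenger RNAs that pair with its seed, the bases near its 5′ end. Clusters of paralogous microRNAs arise by duplication, so the products of both loci often share their seed and many of their targets. MiR-23, miR-27 and miR-24 are widely expressed and have been studied in blood vessels, in muscle, in fat cells and in cells of the immune system. In brain, miR-23 is known from work on astrocytes, the support cells that surround synapses and vessels, and on the lamin of myelinating cells. MiR-27 is known for targets in lipid metabolism, and miR-24 for targets in the cell cycle and in apoptosis.

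The mature sequences show what tells the paralogs apart, and they were taken from RefSeq on the build GRCm38.p6, which matched 11 arms of the 6 genes. MiR-23b-3p was not in that table. The 3p arms, which are the arms usually taken as guides, are given here 5′ to 3′ with the seed, bases 2 to 8, in capitals.
miR-23a-3p: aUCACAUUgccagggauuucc
miR-27a-3p: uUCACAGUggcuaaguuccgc
miR-27b-3p: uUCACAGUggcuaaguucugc
miR-24-3p: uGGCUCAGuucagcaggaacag

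MiR-27a-3p and miR-27b-3p have the same seed and are alike at every position but one, the substitution C19U, counted from 1 at the 5′ end with the base of miR-27a-3p first. MiR-24-3p is one sequence with 2 genes, Mir24-2 and Mir24-1, and differs at 0 of 22 positions between them. The 5p arms of Mir24-2 and Mir24-1 do differ, and they are shown because they are the annotated arms by which these 2 hairpins can be told apart. They are identical over their first 16 bases only, and the seed is again in capitals.
miR-24-2-5p: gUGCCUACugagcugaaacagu
miR-24-1-5p: gUGCCUACugagcugauaucagu

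Along each chromosome the genes lie on the plus strand in the same order, with a tighter spacing on chromosome 8. In the mm10 assembly Mir23a lies at chr8:84208518-84208592, Mir27a at chr8:84208672-84208758 and Mir24-2 at chr8:84208815-84208921, a span of 404 bases. Mir23b lies at chr13:63300484-63300557, Mir27b at chr13:63300712-63300784 and Mir24-1 at chr13:63301208-63301275, a span of 792 bases. The gap between the Mir27 and the Mir24 hairpin is 56 bases on chromosome 8 and 423 bases on chromosome 13. In GENCODE M21 the chromosome 8 hairpins lie outside other genes except for 2 bases of Mir24-2 that overlap the exon of Gm26532, a long non-coding RNA gene. The chromosome 13 hairpins lie within 2010111I01Rik, a protein-coding gene on the same strand, and opposite an intron of Fancc, a gene of DNA repair. Mir23b is intronic in every transcript of 2010111I01Rik that spans it, whereas Mir27b lies within an annotated exon, in untranslated sequence of 1 transcript, and Mir24-1 overlaps exons of 4 transcripts. Both Mir24 hairpins have another microRNA gene on the opposite strand, Mir3074-2 at Mir24-2 and Mir3074-1 at Mir24-1.

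**Figure D1:**
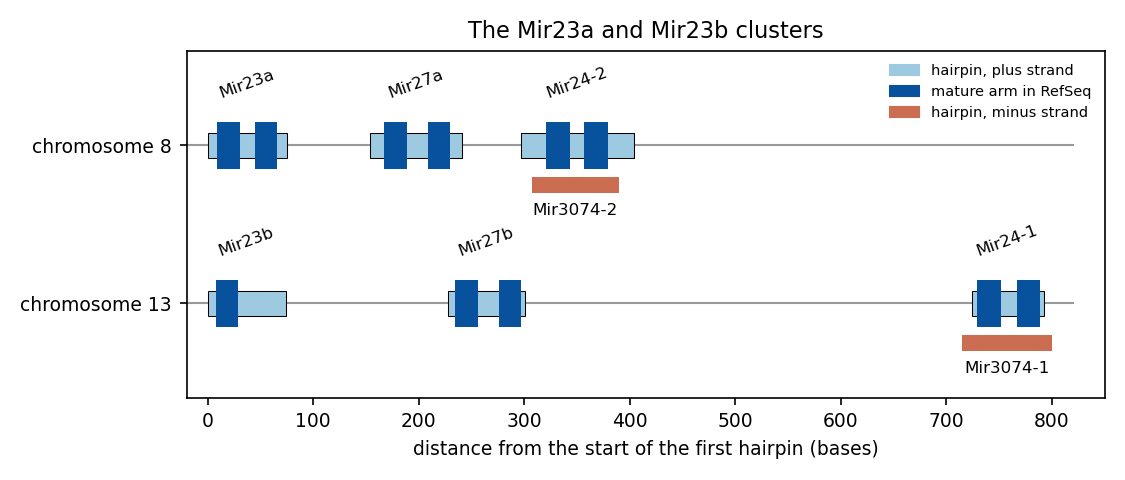
Map of both clusters, with the distance in bases from the start of the first hairpin on the x axis and 1 row per chromosome. Light bars are member hairpins, dark bars the mature arms in RefSeq and red bars the opposite-strand Mir3074 hairpins; the clusters keep the same order, and span 404 bases on chromosome 8 and 792 bases on chromosome 13.

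Hairpins that share sequence share reads, so the stretch common to each pair was found first. It was 20 bases for Mir23a and Mir23b, 20 bases for Mir27a and Mir27b, and 28 bases for Mir24-2 and Mir24-1. Mir24-2 also shares 30 bases with Mir3074-1, the hairpin opposite Mir24-1, so the match of the Mir24 loci runs past those 28 bases. The stretches common to each pair, in lower case, are parts in which a read fits both of its loci.
Mir23a and Mir23b: aaaucacauugccagggauu
Mir27a and Mir27b: uguucacaguggcuaaguuc
Mir24-2 and Mir24-1: cacuggcucaguucagcaggaacaggag

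The stretch of the Mir24 pair, at chr8:84208872-84208899 and chr13:63301248-63301275, contains the whole of miR-24-3p. Those of the other pairs end before the last bases of the 3p arm, at chr8:84208561-84208580 and chr13:63300527-63300546 for Mir23 and at chr8:84208725-84208744 and chr13:63300758-63300777 for Mir27. Read from the 5′ end, miR-23a-3p, miR-27a-3p and miR-27b-3p each matched no hairpin elsewhere once 19 bases were used, and the 5p arms of Mir24-2 and Mir24-1 once 17 were used. No length of miR-24-3p up to the full 22 bases was found at 1 locus only. Of all windows of 22 bases, 0 of 54 in the Mir23a hairpin, 0 of 66 in Mir27a, 0 of 53 in Mir23b and 0 of 52 in Mir27b occurred in another hairpin, against 9 of 86 in Mir24-2 and 7 of 47 in Mir24-1. The search asked for exact matches on either strand and covered annotated microRNA hairpins, not the rest of the genome. The members with few shared windows are thus those of the Mir23 and Mir27 pairs alike, and the Mir24 pair stands apart by its identical 3p arm.

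**Figure D2:**
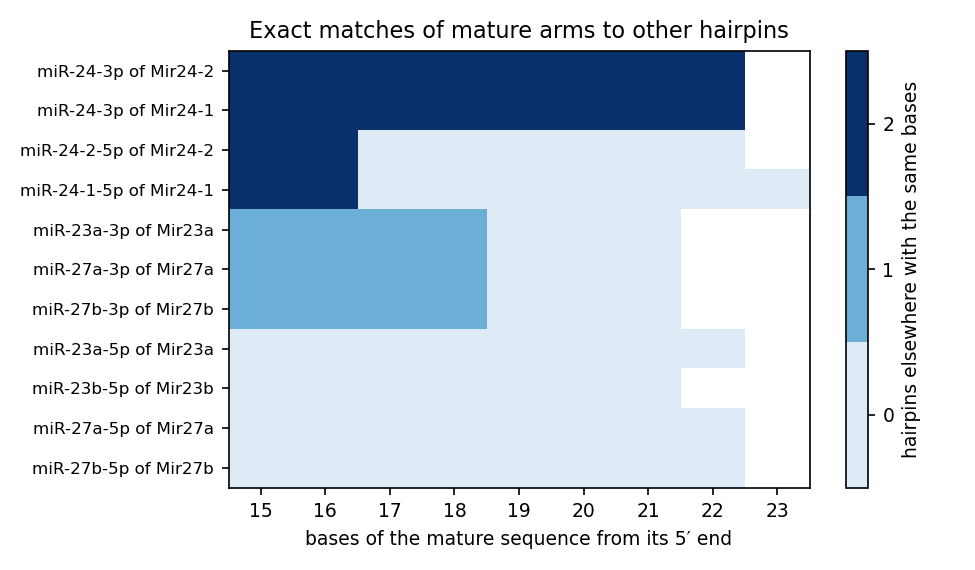
Number of hairpins elsewhere (colour, 0 to 2) that hold the same bases as a mature arm, by the number of bases read from its 5′ end (x axis) and by arm (rows; white where the arm has ended). The 3p arms of Mir23a, Mir27a and Mir27b match no other hairpin from 19 bases on, while miR-24-3p matches 2 over its whole length, the other Mir24 hairpin and the Mir3074 hairpin opposite it.

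In the deposited counts a read with more than 1 mapping place is in a class of its own and in no gene. This class made up 43.9% of the reads of replicate 1 and 45.9% of those of replicate 2. Sense counts on microRNA genes totalled 6713867 in replicate 1, of 15794475 reads, and 5901107 in replicate 2, of 14300757 reads. Levels below are CPM, the sense counts of a gene scaled to a common total of these counts in each library. Small RNA reads are not fragments that tile a longer transcript, so CPM were compared between genes without a length term. Ligation preferences of different sequences were not measured.

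The Mir23 genes had the most counted reads of the members. Replicate 1 had 157258 reads of Mir23b and replicate 2 had 150261, which is 23423 and 25463 CPM, with a mean of 24443 ± 1443 CPM (SD, n = 2). It stood at rank 9 of all genes by mean level. Mir23a had 89622 and 76084 counts, or 13349 and 12893 CPM, with a mean of 13121 ± 322 CPM (SD, n = 2) and rank 15. Both libraries placed Mir23b above Mir23a, and the gap was wider than the spread between libraries of either gene. The reads of the Mir23 pair came to 36772 CPM in replicate 1 and 38356 CPM in replicate 2.

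The Mir27 genes were lower and unequal. Mir27b, whose product has a 3p arm as distinguishable as that of Mir23a, had 8044 and 6043 counts, or 1198 CPM in replicate 1 and 1024 CPM in replicate 2, with a mean of 1111 ± 123 CPM (SD, n = 2) and rank 82. Mir27a had 592 and 364 counts, or 88.2 CPM (exact Poisson 95% interval 81.2 to 95.6) in replicate 1 and 61.7 CPM (55.5 to 68.4) in replicate 2. Its mean was 74.9 ± 18.7 CPM (SD, n = 2), at rank 202. The intervals of Mir27a in the 2 libraries did not overlap. Without molecular identifiers the reads are not independent molecules, and all intervals cover counting error only.

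The Mir24 genes had few counts, and their levels could not be told apart. Mir24-2 had 179 counts in replicate 1 and 173 in replicate 2, or 26.7 CPM (exact 95% interval 22.9 to 30.9) and 29.3 CPM (25.1 to 34.0). Mir24-1 had 174 and 156 counts, or 25.9 CPM (22.2 to 30.1) and 26.4 CPM (22.5 to 30.9). Their means were 28.0 ± 1.88 CPM and 26.2 ± 0.367 CPM (SD, n = 2 each), and the intervals of both genes overlapped in each library. These values leave out every read inside the 28 shared bases, which include all of miR-24-3p, so they are no measure of that microRNA. The files do not separate the arms of a hairpin, and how the counted reads divide between 5p arms and other sequence was not tested.

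**Figure D3:**
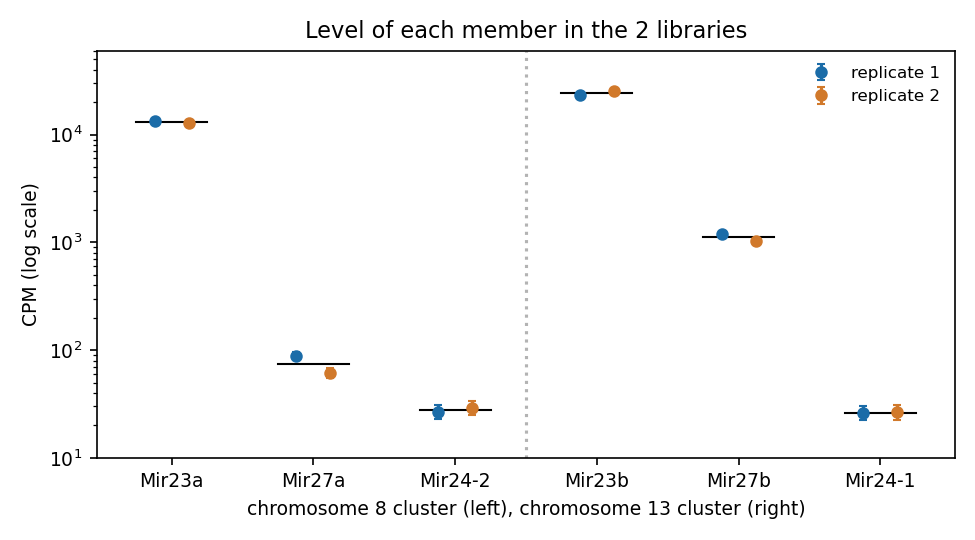
Level of each member in CPM on a log scale, with 1 point per library, its exact 95% Poisson interval (hidden by the point where narrow) and a line at the mean of the 2 libraries. From high to low the order is Mir23b, Mir23a, Mir27b, Mir27a, with Mir24-2 and Mir24-1 last and with overlapping intervals.

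In order of mean level, Mir23b exceeded Mir23a, Mir23a exceeded Mir27b and Mir27b exceeded Mir27a by more than the replicate SD. Mir27a likewise exceeded Mir24-2, while Mir24-2 and Mir24-1 did not differ beyond their counting intervals. With 2 libraries no test between genes was made. The 6 genes together held 3.81% of the sense counts of replicate 1 and 3.95% of those of replicate 2. Of that, the chromosome 8 cluster had 13464 and 12984 CPM and the chromosome 13 cluster 24647 and 26514 CPM. The summed level of the uniquely placed reads of both clusters is therefore almost entirely that of the Mir23 genes. Reads that fit both loci of a pair are in no gene and not in this sum. They include all reads of the mature arm common to Mir24-2 and Mir24-1, so the part of Mir23 in all products is not known.

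Within each cluster the counts of uniquely placed reads were far from equal between the hairpins, although these can be cut from the same primary transcript. Reads of the mature arm common to Mir24-2 and Mir24-1 are in no gene. The percentages are thus parts of the counted reads, not of all products of a cluster. On chromosome 8, Mir23a held 99.1% of the cluster's counts in replicate 1 and 99.3% in replicate 2. Mir27a held 0.655% (exact Clopper-Pearson 95% interval 0.603 to 0.710) and 0.475% (0.428 to 0.526), and Mir24-2 held 0.198% (0.170 to 0.229) and 0.226% (0.193 to 0.262). On chromosome 13, Mir23b held 95.0% and 96.0%, Mir27b 4.86% (4.76 to 4.97) and 3.86% (3.77 to 3.96), and Mir24-1 0.105% (0.0901 to 0.122) and 0.0997% (0.0847 to 0.117). Mir27 thus made up a larger part of the counted reads of the chromosome 13 cluster than of the chromosome 8 cluster in both libraries.

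Set against its Mir23 neighbour within a library, where depth and scaling cancel, Mir27a stood at log2 ratios of -7.24 (counting SE 0.06) and -7.71 (SE 0.08) in replicates 1 and 2. Mir27b over Mir23b gave -4.29 (SE 0.02) and -4.64 (SE 0.02). Both Mir27 to Mir23 ratios were higher in replicate 1, by 0.46 (SE 0.10) on chromosome 8 and by 0.35 (SE 0.03) on chromosome 13. The Mir23 and the Mir27 hairpins each have a common stretch of 20 bases and 3 windows of 18 bases found in another hairpin. How many reads of each gene this leaves out was not tested, as the counts give no read lengths. The Mir24 hairpins share more, and Mir24-2 over Mir23a at -8.96 and -8.78 and Mir24-1 over Mir23b at -9.82 and -9.91 are ratios of the uniquely placed reads only.

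The paralogs differed by a different amount in each pair. Mir23a made up 36.3% of the counted reads of the Mir23 pair in replicate 1 and 33.6% in replicate 2. The log2 ratio of Mir23a over Mir23b was -0.81 (counting SE 0.01) and -0.98 (SE 0.01). Mir27a made up 6.86% and 5.68% of the counted reads of the Mir27 pair, a log2 ratio over Mir27b of -3.76 (SE 0.06) and -4.05 (SE 0.08). Mir24-2 over Mir24-1 gave 0.04 (SE 0.15) and 0.15 (SE 0.16), which is within counting error of equal. The ratio of chromosome 8 over chromosome 13 was higher in replicate 1 for both, by 0.17 (SE 0.01) on the log2 scale in the Mir23 pair and by 0.29 (SE 0.10) in the Mir27 pair. The gap between the Mir23 ratio and the Mir27 ratio, present in each library, was larger than these differences between libraries.

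Other paralogous brain clusters spanned a wide range on the same measure, a log2 ratio of counts within a library. Mir29a over Mir29c gave 5.05 in replicate 1 and 5.56 in replicate 2. Mir29c shares 22 bases with another hairpin and Mir29a has no shared stretch on this measure, so uncounted reads can lower Mir29c alone. Mir29b-1 over Mir29b-2, a pair sharing 25 bases, gave -1.44 and -0.79. Mir181a-1 over Mir181a-2 gave 4.23 and 3.37, and Mir181b-1 over Mir181b-2 gave -6.46 and -6.18. The genes of these Mir181 pairs share 28 and 26 bases with another hairpin, the Mir125b genes 24, the Mir16 genes 23 and Mir99a and Mir100 16, and reads that fit several places are not counted. Mir15a over Mir15b gave -0.01 and -0.26, Mir16-1 over Mir16-2 gave 2.50 and 2.05, Mir99a over Mir100 gave 1.30 and 1.28, and Mir125b-2 over Mir125b-1 gave -0.01 and -0.03. The ratios of the Mir23, Mir27 and Mir24 pairs lay inside the range of these 8 pairs. Both ends of that range come from pairs in which shared reads are not counted. The Mir125b genes make the same mature 5p arm, as the Mir24 genes make the same 3p arm. Neither pair's ratio can thus be read as a ratio of that arm. The ratios of the Mir29b, Mir181a, Mir181b and Mir16 pairs, which share 23 to 28 bases, likewise rest on uniquely placed reads only.

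**Figure D4:**
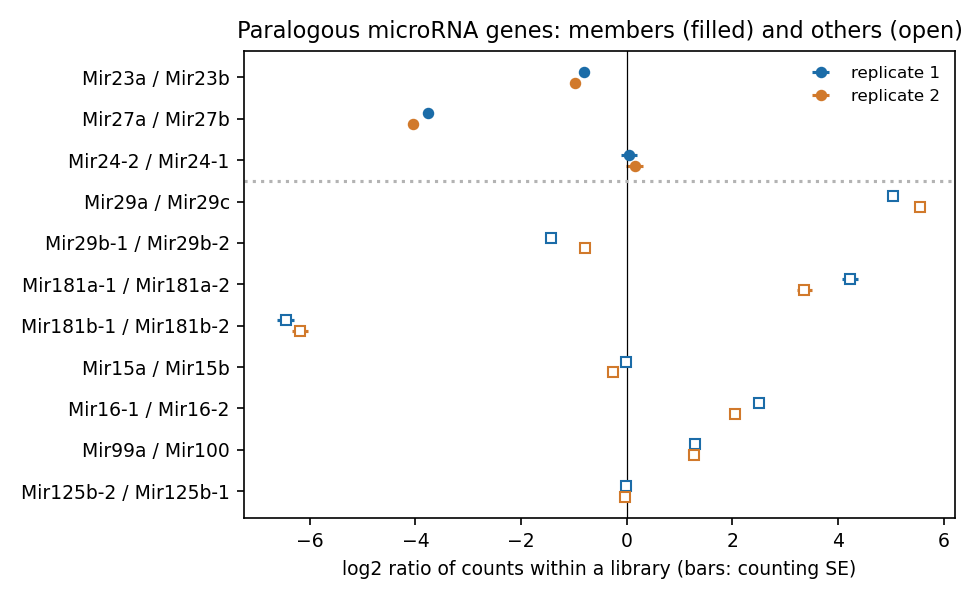
Log2 ratio of counts of paralogous genes within each library (x axis, bars are the counting SE), for the 3 member pairs (filled, chromosome 8 over chromosome 13) and 8 pairs of other clusters (open). Mir23a / Mir23b and Mir27a / Mir27b lie below 0 in both libraries, at -0.81 and -0.98 and at -3.76 and -4.05, and Mir24-2 / Mir24-1 lies near 0.

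The 2 libraries were compared gene by gene wherever the mean count was at least 10, a filter that 466 genes and all 6 members passed. The 2-sided Fisher exact test was adjusted by Benjamini-Hochberg over those genes. A gene is called at an adjusted p below 0.05 with one sign of the ratio under 3 scalings, and the test compares the libraries' reads, not conditions. Mir27a and Mir27b were higher in replicate 1 and Mir23b was lower, so 3 of 6 members were called, beside 53.6% of all tested genes. By direction, 35.6% of tested genes were higher and 18% lower in replicate 1. A count of 3 of 6 is close to that background. The median log2 ratio of replicate 1 over replicate 2, scaled by trimmed mean of M values (TMM), was -0.15 for the members and 0.02 for all tested genes. Scaling by totals moved these medians to 0.01 and 0.18, so that ratios under totals sit higher as a whole.

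Of the Mir23 genes, the most abundant members, Mir23b was called and Mir23a was not. Mir23b had a log2 ratio of replicate 1 over replicate 2 of -0.28 (counting SE 0.01) under TMM and -0.12 under totals. Its adjusted p was 1.78e-120 by the Fisher exact test, which compares shares of the raw totals. Of all tested genes, 40.3% had a smaller ratio in size under TMM. Mir23a passed the same test (adjusted p = 4.24e-12), but its ratio was -0.11 under TMM and 0.05 when scaled by totals, so no direction can be given.

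Mir27a had a log2 ratio of 0.35 (SE 0.10) under TMM and 0.51 under totals, with an adjusted p of 1.89e-07 by the Fisher exact test. Mir27b had 0.06 (SE 0.02) under TMM and 0.23 under totals, with an adjusted p of 8.64e-20. Under TMM the difference of Mir27b was 1.05-fold, and 11.4% of tested genes had a smaller one. The Fisher test compares shares of the raw totals, and an exact binomial test at TMM library sizes gave adjusted p of 0.000535 for Mir27a and 0.0163 for Mir27b. Mir24-2 at -0.30 (SE 0.15) and Mir24-1 at -0.19 (SE 0.16) did not pass the test, with adjusted p of 0.501 and 0.904. They rest on 156 to 179 counts, and a p that misses the threshold does not show that the libraries were alike.

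**Figure D5:**
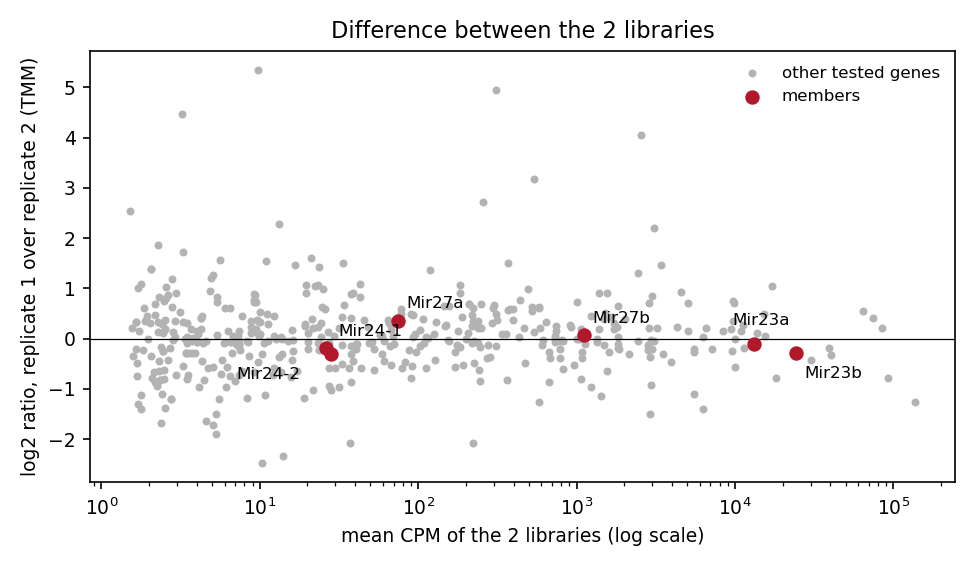
Log2 ratio of replicate 1 over replicate 2 under TMM scaling (y axis) against mean CPM on a log scale (x axis) for the 466 tested genes, members in red. The members lie between -0.30 and 0.35, within the spread of the other genes at their level.

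Markers of several cell types also differed between the libraries, and their part in the member differences was not tested. Mir126a, made in endothelium, had 6191 CPM in replicate 1 and 2897 in replicate 2. Its partner gene Mir126b was at 0 in both. The 3 blood markers Mir451a, Mir486 and Mir144 summed to 73.1 and 32.7 CPM, and the 3 oligodendrocyte markers to 7078 and 3193 CPM. Most of this last difference lay in Mir219a-2, at 5126 and 1671 CPM. Mir338 had 1941 and 1512 CPM, and Mir219a-1, which did not pass the test, 10.6 and 9.15 CPM. The 5 microglial and leukocyte markers summed to 2025 and 2238 CPM. Of these 5 genes, Mir223, Mir146, Mir155 and Mir142 were higher in replicate 1 and Mir150, the most abundant, was lower, with a median log2 ratio of 0.63 under TMM. The 11 neuronal markers summed to 26787 and 27842 CPM, with Mir124a-2 at 0 in both libraries. Of their 7 tested genes 3 were higher in replicate 1, Mir138-1, Mir138-2 and Mir132, and 4 were lower, Mir9-1, Mir9-3, Mir128-1 and Mir128-2, with a median of -0.62. Mir124a copies share 32 bases, so these low counts leave out shared reads. Of the 5 muscle markers 4 were at 0, and Mir122 of liver stood at 55.1 and 42.0 CPM. The endothelial, blood and oligodendrocyte sums were thus higher in replicate 1, and the neuronal sum and the microglial and leukocyte sum were lower. Of the 5 microglial and leukocyte genes, 4 went against their sum. Beside these counts of higher and lower markers, 35.6% of all tested genes were higher and 18% lower in replicate 1. Mir27a and Mir27b were higher in replicate 1 and Mir23b was lower, and a link to any of these lists was not tested.

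The members were set beside other microRNAs that are known from astrocytes. In that list of 13, of which 6 are the members, all were tested, 5 were higher and 2 lower in replicate 1, 3 passed with a sign that depended on the scaling and 3 did not pass. Over all tested genes, 35.6% were higher and 18% lower. Its median log2 ratio was -0.04 under TMM, against 0.02 for all tested genes. Without the members, the 7 others, of the Mir29 and Mir125 families, had 3 genes higher, Mir29a, Mir29b-2 and Mir29c, and 1 lower, Mir125a, beside the same 35.6% and 18%. The members summed to 38110 CPM in replicate 1 and 39498 in replicate 2, and those 7 to 27181 and 32212 CPM. In the endothelial list of 6, with Mir126a, Mir126b, Mir221, Mir222, Mir210 and Mir296, 5 genes were tested, 4 were higher in replicate 1 and 0 lower, with a median log2 ratio of 0.74. The shares over all tested genes are again 35.6% and 18%. The sign of Mir222 in that list depended on the scaling.

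Around the clusters the annotation holds few other microRNA genes. Within 10 kb of a member there were only Mir3074-2 and Mir3074-1, on the opposite strand. Beside the 174 and 156 counts of Mir24-1, Mir3074-1 on the other strand had 100 in replicate 1 and 57 in replicate 2, or 14.9 and 9.66 CPM. Mir3074-2 had 0 and 1, where 3 counts are the limit that a count of 0 allows. Both Mir3074 hairpins share 30 bases with another hairpin, so their counts too leave out the reads inside the shared part. Opposite-strand reads at the other members were 0 in both libraries for Mir23a, Mir27a, Mir23b and Mir27b. The Mir181c and Mir181d pair lies 29.6 and 29.7 kb from Mir23a on the minus strand. Mir181d stood at 1552 and 1208 CPM in replicates 1 and 2 and Mir181c at 751 and 703 CPM, levels between those of Mir23a and Mir27a.

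Genes with the seed of a 3p arm were few. Among 1738 mature sequences no other arm carried the seed of miR-23a-3p at bases 2 to 8, and none but the Mir27 pair that of miR-27. MiR-23b-3p is not among the sequences searched, and the stretch common to the Mir23a and Mir23b hairpins includes these seed bases. The seed of miR-24-3p was also found in miR-6413, miR-6410, miR-6369 and miR-5124b, whose genes had 0 counts in both libraries, which allows up to 3 counts. The 7 seed bases of miR-27 also open miR-128-3p, shifted by 1 base. MiR-128 is a neuronal microRNA, and its sequence is printed with these bases in capitals because the overlap was noticed after its level was known.
miR-128-3p: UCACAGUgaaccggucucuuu

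Beside the Mir27 pair, at 1286 CPM in replicate 1 and 1086 in replicate 2, Mir128-1 stood at 3723 and 8772 CPM and Mir128-2 at 953 and 1882 CPM. Both were lower in replicate 1, whereas Mir27a and Mir27b were higher there. The Mir128 genes make the same miR-128-3p and each share 23 bases with another hairpin, so their counts leave out reads inside the shared part. A shared run of bases is a description of sequence and does not show a shared target.

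The genes closest to each member in level over the 2 libraries were found by the distance in log2(CPM + 1). For Mir23b they were Mirlet7e and Mir125a (distance 0.42 and 0.74), and for Mir23a Mir132 and Mir191 (0.18 and 0.29). Mir27b lay next to Mir187 and Mir140 (0.04 and 0.12) and Mir27a next to Mir6540 and Mir467c (0.01 and 0.11). Mir24-2 and Mir24-1 both had Mir7240 and Mir7j as their nearest genes. With 2 libraries, such closeness means a like level and carries no more.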

How the data were processed

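MicroRNA libraries of mouse hippocampus, 2 in all and of 1 group, were analysed. The authors deposited raw read counts per microRNA gene, made on mm10 with GENCODE M21, as the notes beside each file state. Which aligner and counter made them is not given in the sources used here. The files have 3 count columns without headings, and their values show them as counts without strand, on the sense strand and on the opposite strand. The sense column was used. The 4 read-class rows, which held 57.5% and 58.7% of reads in replicates 1 and 2, stayed out of library sizes. All 2202 identifiers matched GENCODE M21.

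CPM, exact intervals at 95%, Fisher and binomial exact tests were computed in Python 3.11.15 with scipy 1.17.1. Scaling factors came from edgeR 4.0.16 (TMM) and DESeq2 1.42.0. Log2 ratios had 0.5 counts added, and their standard errors cover counting error only. With 1 group, edgeR and DESeq2 gave scaling only and no test. The exact test was run on simulated Poisson counts with known changes in genes that were not among the most abundant. Such counts vary between libraries by counting error only, so the run does not cover other variation. Hairpins were compared by exact matching of GENCODE transcripts, and mature sequences came from RefSeq (GRCm38.p6).

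Named genes were the 6 members, microRNA genes within 10 kb, Mir181c and Mir181d, genes sharing a 3p seed, the 2 genes nearest in level to each member, 8 paralogous pairs, and marker lists written from general knowledge. Mir128-1 and Mir128-2 were added for sequence after their values were seen. The rule for the members uses names and positions alone, but this gene family and the lists were chosen with earlier results of these data known. Alternatives covered strand, denominator, scaling, filters, shared sequence and each library left out. The binomial test at TMM library sizes was added after seeing the data.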

Additional observations from a re-analysis of the deposited data

Results flagged for a closer look

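The opposite-strand column, which no level above uses, held reads at Mir24-1, with 100 counts in replicate 1 and 57 in replicate 2, above the 3 counts that a count of 0 allows. The same reads are the sense counts of Mir3074-1, the gene on the other strand of that hairpin.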

How the results depend on the processing

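No paired analysis was possible because both libraries belong to 1 group. The number of called members was 3 under each alternative run. For both other scalings this was fixed, since the Fisher test uses raw totals and a call needs one sign under all 3. Among all tested genes, 233 of 441 were called with counts without strand, where the Mir24 genes had 0 counts and were not tested. The calls were 246 of 787 with no filter and 233 of 328 at a mean of 50 or more counts. With all other genes sharing 18 or more bases removed (the members, which share 20 to 30, were kept), 191 of 377 were called. The binomial test at TMM library sizes called 240 of 466, with an adjusted p of 0.0163 for Mir27b. As these shares differ, the constant 3 does not show a stable result for the members. The log2 ratio of Mir23a reversed to 0.0501 under total gene counts. Levels on another base moved by construction. Over all reads of a library, the 6 members had 16249 CPM, the Mir23a cluster 5540 CPM and the Mir23b cluster 10709 CPM, with Mir23a at 5497, Mir27a at 31.5, Mir24-2 at 11.7, Mir23b at 10232, Mir27b at 466 and Mir24-1 at 11.0 CPM. Without Mir139 in the total, the members had 45208 CPM, the clusters 15374 and 29835 CPM, Mir23a 15255, Mir24-2 32.7, Mir23b 28517, Mir27b 1287 and Mir24-1 30.5 CPM. Mir139 itself stood at 87249 CPM in replicate 1 and 188348 CPM in replicate 2. Leaving it out raised the SD of the summed members from 981 to 4886 CPM. For Mir23b the SD rose from 1443 to 4038 CPM and for Mir23a from 322 to 891 CPM. The SD of both Mir24 genes rose too, and that of Mir27a and Mir27b fell. The small SD of the Mir23 levels thus depended on the denominator. Counted without strand, Mir24-2 and Mir24-1 had 0 CPM and a share of 0% of their clusters, since a microRNA gene lies opposite each. The members then summed to 41388 CPM and the clusters to 14095 and 27293 CPM, with Mir23a at 14015 CPM and 99.4% of its cluster and Mir23b at 26106 CPM. The order of the Mir23 and Mir27 genes by mean level was the same in each of these settings, which was fixed in advance. It is the same in both libraries, the other denominators scale all genes of a library alike, and these genes' counts without strand equal their sense counts. The paralog ratio of Mir24 could not be formed without strand. With 2 libraries, the value of either alone always lies within the replicate SD of the mean, so leaving one out says nothing about the stability of levels and shares. With 2 libraries of 1 group, depth limits the Mir24 values, and whether the spread is one between animals is not known.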
